A study of Xenopus laevis with 6 samples.

Results

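The genes described here are foxa4, gsc and hhex, 3 transcription factor genes of the Spemann organizer, the dorsal signalling centre of the amphibian gastrula. They were chosen as all probe sets whose single platform symbol was foxa4.L, foxa4.S, gsc.L or hhex.L, which gave 4 of the 11303 genes named by the array and 5 of its 32539 probe sets, 2 of them for hhex.L. The suffixes L and S name the long and short subgenomes of the tetraploid frog Xenopus laevis. A probe set of the other goosecoid copy, gsc.S, is not a member and is given beside gsc.L for comparison, and hhex.S was not analysed here. RNA came from animal caps, the prospective ectoderm of the blastula, which forms epidermis when left alone. It was hybridised to 6 GeneChip Xenopus laevis Genome 2.0 arrays in 2 cultures, caps grown with activin plus retinoic acid (activin/RA) and untreated caps. Within each culture 1 array held caps injected with ERK3 MO1/2, a mix of MO1 at 40 ng and MO2 at 40 ng. Another held caps with ERK3 MO3 at 80 ng, and the last held caps with Control MO at 80 ng. All 4 blastomeres received the morpholino at the 4-cell stage, in their animal region. Caps were explanted at stage 9 and lysed at stage 15, the early neurula. The gene mapk6 encodes ERK3, an atypical kinase of the MAP kinase family. A morpholino is an antisense oligonucleotide that blocks translation or splicing of its target RNA.

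Foxa4 is a forkhead factor of the organizer, notochord and floor plate, known in Xenopus as pintallavis. Goosecoid (gsc) is a homeodomain repressor of the early organizer and the prechordal mesoderm that follows it. Hhex is a homeodomain repressor of the anterior endoderm, later used in liver and blood vessel precursors. Activin signals through type I and type II serine/threonine kinase receptors and Smad2 and Smad3, which act on chromatin with partners such as Foxh1 and the Mix family. Nodal ligands use the same Smads in the embryo, and gsc is a standard direct target of this pathway in cap explants. Activin and retinoic acid were always given together here, so their effects on any gene cannot be told apart. By its title the series concerns ERK3 and epithelial architecture, and the arrays compare cultures and morpholinos.

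The study was a single experiment with 1 array in each group. No p-value therefore rests on a spread among replicate arrays. For activin/RA against untreated caps, the residual spread is how the culture difference varied among pairs that received different morpholinos. For knockdown against control, it is the difference between the knockdown reagents within each culture. limma moderated these spreads with variance information from all probe sets. Part of each spread may be technical, and that part cannot be separated here. The number of arrays limits the precision. Median log2 signals lay between 5.08 and 5.14 on the 6 arrays, and the arrays correlated with each other at r = 0.943 to 0.993 across probe sets, which are not independent replicates. The symbol mapk6 was on no probe set with a single symbol, and the other probe sets were not searched for it. The targeted transcript was therefore not analysed here, and the knockdown was not checked at the RNA level. All 15 epidermal marker genes measured (keratins krt12.4, krt12.5 and krt70, with tfap2a, dlx3, dlx5, grhl1, grhl3 and tp63) are expected in cap ectoderm, and 13 of 15 lay above the median of all values on the untreated control array. Both copies of tp63 were the exceptions, at log2 signals of 1.65 to 2.14 on the untreated arrays.

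Activin/RA raised foxa4, gsc and hhex, each of them in all 3 morpholino pairs. All 5 probe sets passed the test of activin/RA against untreated caps in the higher direction (limma with the morpholino as a block, Benjamini-Hochberg adjusted p under 0.05), where 9.60% of all probe sets did so and 20.5% passed in either direction. In all 5, the 3 activin/RA arrays lay above the 3 untreated arrays, as they did for 15.1% of all probe sets. The signal was at least 2-fold higher in every pair for 4 of the 5, against 1.74% of all probe sets. The genes were chosen with earlier results of these data known, so these counts beside the shares are not independent support. In bulk samples fewer cells of a type and less RNA per cell cannot be told apart.

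The short-subgenome copy of foxa4 had the larger difference of the pair. Its RMA signal on the linear scale was 436 with ERK3 MO1/2, 281 with ERK3 MO3 and 258 with Control MO in activin/RA caps, against 4.13, 4.31 and 3.48 in untreated caps with the same morpholinos. The activin/RA caps were thus high on every array, and the untreated caps lay at the foot of the scale, between percentiles 5.3 and 13.1 of their arrays. The log2 change was 6.32 ± 0.18 (SE, 3 pairs), a 79.9-fold mean difference (limma adjusted p = 1.22e-05). That fold is taken against signals at the foot of the scale, where RMA gives no detection call, and it was 4.06 on the log2 scale with 16 added to every linear signal.

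The long-subgenome copy, foxa4.L, had a signal of 416 with ERK3 MO1/2, 242 with ERK3 MO3 and 201 with Control MO in activin/RA caps, against 7.61, 13.5 and 4.26 in untreated caps. The groups did not overlap, and the untreated values of this copy were more spread than those of foxa4.S. The log2 change was 5.16 ± 0.30 (moderated limma SE, 3 pairs; limma adjusted p = 0.000112), a 35.9-fold mean difference. By pair, it was 5.77 with ERK3 MO1/2, 4.16 with ERK3 MO3 and 5.56 with Control MO, the lowest being the pair with the highest untreated signal. The same pairs of foxa4.S gave 6.72, 6.03 and 6.21.

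The change of goosecoid was smaller, 6.58-fold for gsc.L. The signal of gsc.L was 130 with ERK3 MO1/2, 85.2 with ERK3 MO3 and 45.1 with Control MO in activin/RA caps, against 15.9, 13.9 and 7.93 in untreated caps. Activin/RA arrays were higher throughout, and in both cultures the control array was the lowest of its 3. The log2 change was 2.72 ± 0.17 (SE, 3 pairs; limma adjusted p = 0.000154), with 3.03, 2.62 and 2.51 in the MO1/2, MO3 and control pairs. These differences between pairs were small beside their mean.

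The other copy, gsc.S, had a signal of 51.3, 51.4 and 44.1 in activin/RA caps with MO1/2, MO3 and Control MO, against 15.6, 17 and 14.4 in untreated caps. It was the steadiest of the 6 probe sets across morpholinos within a culture. Its log2 change was 1.65 ± 0.15 (SE, 3 pairs; limma adjusted p = 0.000758), and each pair gave between 1.60 and 1.72. Copies on the subgenomes can share probes, so signal of one copy on probes of the other was not separated here.

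The probe sets of hhex.L differed in how far they moved. The one named Xl2.225.1.S2_at read 45.5 with ERK3 MO1/2, 24.2 with ERK3 MO3 and 38.8 with Control MO in activin/RA caps, against 6.03, 7.23 and 5.06 in untreated caps. Its MO3 array was the lowest activin/RA array and the highest untreated one, so the MO3 pair had the smallest difference. The log2 change was 2.53 ± 0.25 (SE, 3 pairs; limma adjusted p = 0.00104), from pairs of 2.92 with MO1/2, 1.74 with MO3 and 2.94 with Control MO.

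The second hhex.L probe set, Xl2.225.1.S1_at, read 8.73, 8.14 and 7.39 in activin/RA caps with MO1/2, MO3 and Control MO, against 5.64, 5.18 and 4.29 in untreated caps. All 6 of these values lay at percentile 28.8 of their arrays or lower. The log2 change was 0.69 ± 0.12 (SE, 3 pairs; limma adjusted p = 0.00811), with pairs between 0.63 and 0.78. This call was lost without the activin/RA MO1/2 array (0.72, limma adjusted p = 0.0509) and without the untreated MO1/2 array (0.72, limma adjusted p = 0.0578). Either omission takes the MO1/2 pair out of the blocked comparison, so both estimates rest on the same MO3 and control pairs. The limma adjusted p of this probe set ranged from 0.00278 to 0.0578 over all alternatives.

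**Figure D1:**
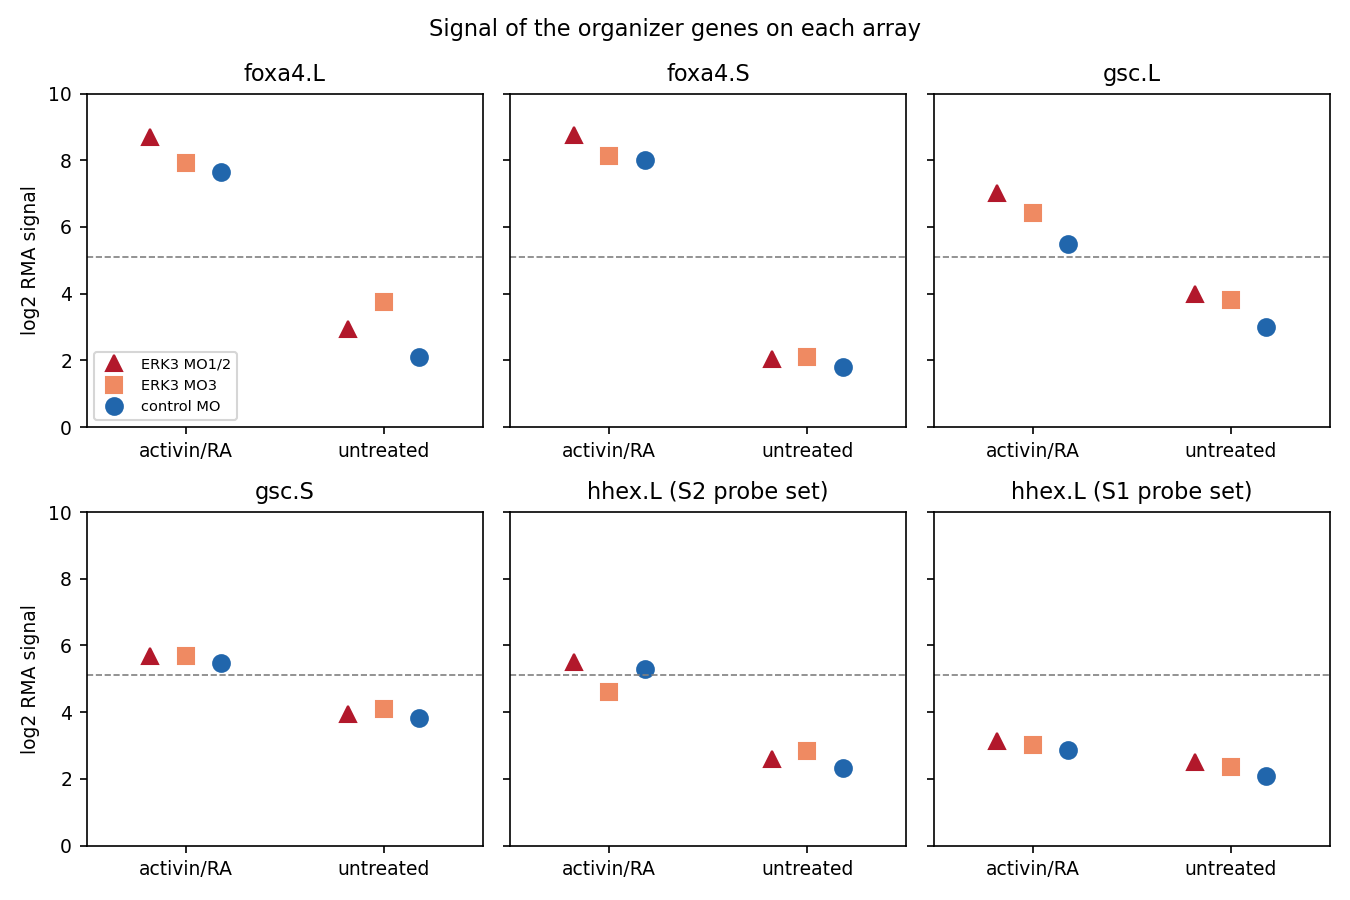
Log2 RMA signal of each probe set on the 6 arrays, with activin/RA caps left and untreated caps right in each panel; each point is 1 array and the dashed line is the median of all values (5.10). Activin/RA points lie above untreated points in every panel, and foxa4.S lies between 8.01 and 8.77 in activin/RA caps, against 1.80 to 2.11 in untreated caps.

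The size of these folds depended on how signals near the foot of the scale were handled. When 16 was added to every linear signal before taking logs, the changes were 4.06 for foxa4.S, 3.58 for foxa4.L, 1.77 for gsc.L, 1.22 and 0.20 for the S2 and S1 probe sets of hhex.L. All 5 still passed (limma adjusted p between 0.000157 and 0.00679). The highest limma adjusted p over every member and alternative was 0.0578, at the S1 probe set of hhex.L, whose call was lost there.

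**Figure D2:**
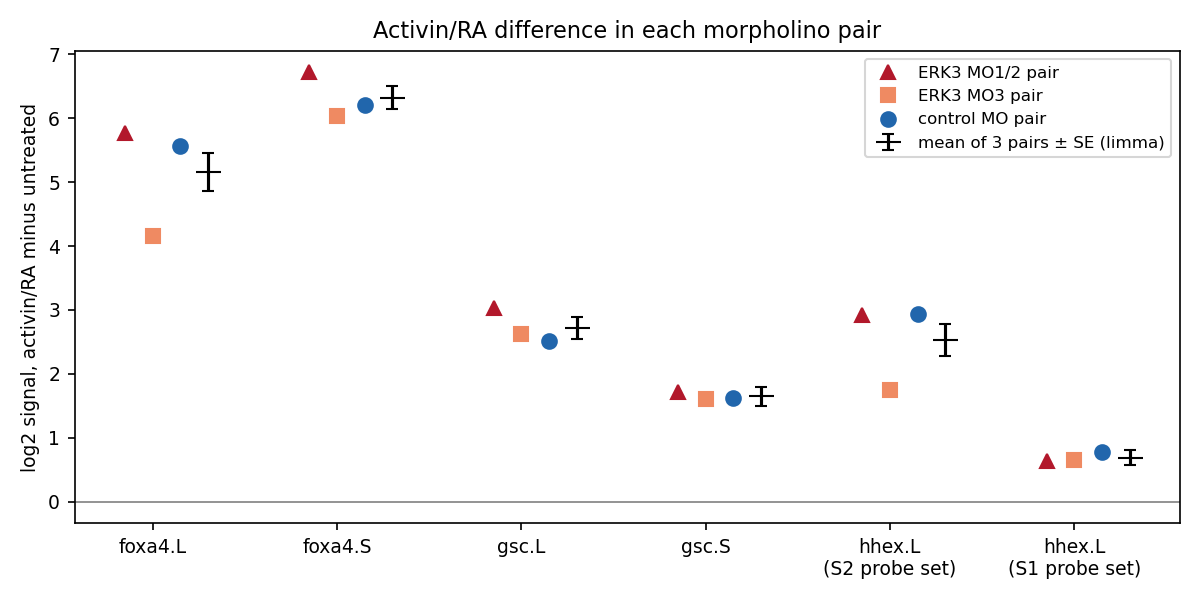
Difference in log2 signal, activin/RA minus untreated, in each morpholino pair (coloured points), with the limma mean of the 3 pairs and its SE (black). The MO3 pair is the lowest for foxa4.L (4.16) and for the S2 probe set of hhex.L (1.74), and the pairs of gsc.L and gsc.S lie close together.

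With the ERK3 morpholinos, gsc.L was the member that differed most from control in activin/RA caps, and it did not pass the test. Its log2 difference from the control array was 1.53 with MO1/2 and 0.92 with MO3. The fitted mean was 1.22 ± 0.29 (SE; 95% interval 0.54 to 1.90; limma adjusted p = 0.218), the 38th highest of all probe sets, and the adjusted p was 0.175 to 0.531 over the alternatives. This test takes the 2 reagents as replicates of each other and gives the single control array the same variance. None of the 5 probe sets passed in activin/RA caps, where 0.138% of all probe sets did (0.0123% higher and 0.126% lower).

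Both foxa4 copies were higher with each reagent in activin/RA caps, more so with MO1/2. foxa4.L differed from control by 1.05 with MO1/2 and 0.27 with MO3 (fitted 0.66 ± 0.42, 95% interval -0.31 to 1.64, limma adjusted p = 0.62). foxa4.S differed by 0.76 and 0.12 (fitted 0.44 ± 0.29, 95% interval -0.24 to 1.12, limma adjusted p = 0.642). Neither difference exceeded the spread between the reagents.

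With the reagents hhex.L differed from control in opposite directions in activin/RA caps, by 0.23 with MO1/2 and -0.68 with MO3 for the S2 probe set (fitted -0.22 ± 0.36, 95% interval -1.07 to 0.62, limma adjusted p = 0.872). Its S1 probe set stood at 0.24 and 0.14 with the same reagents (fitted 0.19 ± 0.17, limma adjusted p = 0.742). For comparison, gsc.S stood at 0.22 with both (fitted 0.22 ± 0.21, 95% interval -0.27 to 0.71, limma adjusted p = 0.761).

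In untreated caps, where these genes read low, both ERK3 arrays lay above control for all 5 probe sets, as they did for 41.0% of all probe sets. The fitted difference was 1.25 ± 0.42 for foxa4.L (0.84 with MO1/2 and 1.66 with MO3, 95% interval 0.28 to 2.23, limma adjusted p = 0.119). For gsc.L it was 0.91 ± 0.29 (1.0 with MO1/2 and 0.81 with MO3, 95% interval 0.23 to 1.58, limma adjusted p = 0.109). The other 3 probe sets differed less, with fitted values of 0.28 for foxa4.S and 0.33 and 0.38 for the S1 and S2 probe sets of hhex.L (limma adjusted p between 0.29 and 0.637). The non-member copy gsc.S differed by 0.12 with MO1/2 and 0.24 with MO3 (fitted 0.18 ± 0.21, limma adjusted p = 0.679).

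None of the 5 passed in untreated caps, where 6.70% of all probe sets did (3.14% higher and 3.56% lower). With 16 added before logs, the difference of foxa4.L was 0.38 and that of gsc.L was 0.37. Over all alternatives the limma adjusted p ranged from 0.0959 to 0.528 for foxa4.L and from 0.0796 to 0.398 for gsc.L. Both reagents gave values above control in both cultures for 4 of the 5 probe sets, all but the S2 probe set of hhex.L, against 21.9% of all probe sets. The MO1/2 and MO3 differences of a culture share its control array, so they are not independent of each other.

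**Figure D3:**
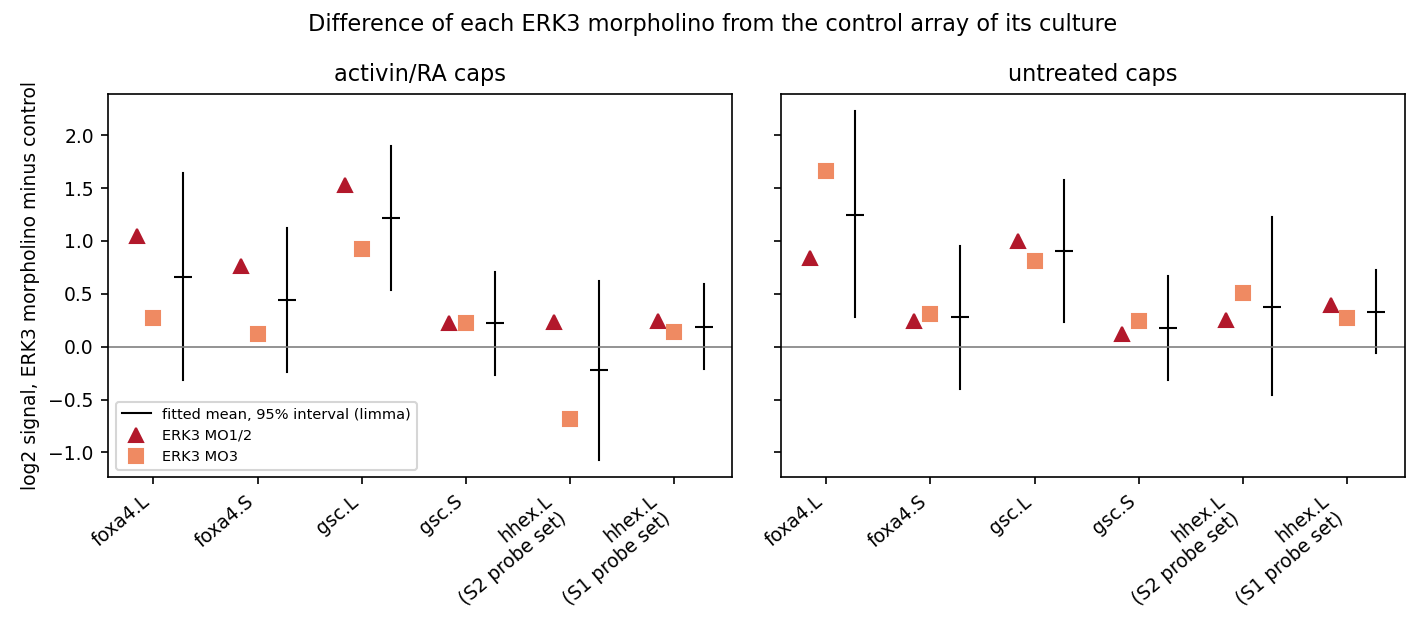
Difference in log2 signal between each ERK3 morpholino and the control array, in activin/RA caps (left) and untreated caps (right); coloured points are single arrays, and black lines are the limma mean with its 95% interval. gsc.L lies above 0 with both reagents in both cultures, and the reagents lie on opposite sides of 0 for the S2 probe set of hhex.L in activin/RA caps.

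Epidermal markers moved with the same comparison. With the ERK3 morpholinos in untreated caps 3.56% of all probe sets fell and 3.14% rose. Of 15 epidermal marker genes, 10 fell and 0 rose (median log2 change -1.47, against 0.01 over all probe sets, with limma adjusted p of the 10 between 0.0148 and 0.038). They were krt12.4.L, krt12.4.S, krt12.5.S, krt70.L, krt70.S, dlx3.L, dlx3.S, dlx5.L, tfap2a.L and tfap2a.S. The summed linear signal of all 15 was 4570 with MO1/2 and 5784 with MO3, against 12146 with Control MO. A single keratin gene, krt70.S, held 3072, 3563 and 7329 of these sums, and the other 14 genes summed to 1498 with MO1/2 and 2221 with MO3, against 4817 with Control MO. In activin/RA caps the sum of all 15 was 6011 and 6579, against 10964 with Control MO (3425 and 3329, against 6660, without krt70.S), with 0 of 15 passing and 9 at an unadjusted limma p under 0.05. The part of these changes in the values of foxa4, gsc and hhex was not tested.

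No member passed the test of a different ERK3 effect in the 2 cultures. The interaction, activin/RA minus untreated, was -0.59 ± 0.59 for foxa4.L, 0.16 ± 0.41 for foxa4.S and 0.32 ± 0.41 for gsc.L. For hhex.L it was -0.61 ± 0.51 and -0.14 ± 0.24 at the S2 and S1 probe sets, and the limma adjusted p-values of the 5 lay between 0.762 and 0.94. Of all probe sets 0 passed this test (0%), with 3061 at an unadjusted limma p under 0.05.

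Between the reagents, MO3 lay below MO1/2 in activin/RA caps for all 5 probe sets, as it did for 49.4% of all probe sets. The differences were -0.79 for foxa4.L, -0.64 for foxa4.S, -0.61 for gsc.L, -0.91 for the S2 and -0.10 for the S1 probe set of hhex.L. In untreated caps foxa4.L went the other way, with MO3 above MO1/2 by 0.83. Averaged over the cultures, gsc.L had the largest difference of the 5 (-0.40 ± 0.21, limma adjusted p = 0.884). For MO3 against MO1/2, 0 probe sets passed (0%), with 1973 at an unadjusted limma p under 0.05.

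Other genes of the organizer were read from lists of known genes, taking for each gene the probe set of highest mean signal. Of 15 other organizer transcription factor genes, 3 rose with activin/RA and 1 fell (median change 0.01, against -0.01 over all probe sets). With 20.5% of all probe sets passing in either direction, 4 of 15 is near the background and is no result about the list. The LIM homeodomain gene lhx1.L rose by 5.20 ± 0.16 (limma adjusted p = 1.22e-05), although its 3 probe sets ranged from 0.38 to 5.20. foxd4l1.1.S, a forkhead gene of the early neural ectoderm, rose by 2.25 and irx3.L by 1.32, with the second probe set of irx3.L at 0.06. hesx1.L, an anterior neural homeobox gene, fell by 1.09, and this call was lost without the untreated MO1/2 array and without the morpholino block.

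Several early organizer regulators were near the foot of the scale in both cultures. sia1.L and sia2.S, the Siamois and Twin homeobox genes that switch on gsc downstream of maternal beta-catenin, stood at log2 signals of 1.90 to 2.26 and 2.25 to 2.51 in activin/RA caps, against 1.99 to 2.11 and 2.48 to 2.70 in untreated caps. The head gene otx2.L was well expressed in both, at 8.22 to 8.49 in activin/RA caps and 8.44 to 9.39 in untreated caps (log2 change -0.49, limma adjusted p = 0.149). The foxa4 relative foxa2.L stood at 2.66 to 2.92, against 2.40 to 2.69 (log2 change 0.24, limma adjusted p = 0.194), while its second probe set changed by 1.12.

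The secreted factors of the organizer were split. Of 15 genes 7 rose and 1 fell (median 0.59), where 9.60% of all probe sets rose and 10.9% fell. Those with the largest rises were the Nodal, BMP and Wnt antagonist gene cer1.S (5.66), the BMP antagonist gene chrd.1.S (4.76), the Wnt antagonist genes frzb.S (3.17) and dkk1.S (2.56), with limma adjusted p of 0.00245 or less. The second probe set of cer1.S stood at 0.97. frzb.S read 4.02 to 5.15 on the log2 scale in activin/RA caps, against 1.15 to 1.55 in untreated caps. frzb.L rose by 1.57, and an entry named frzb without a suffix did not pass (-0.38, limma adjusted p = 0.0838). The count of 7 was 5 when probe sets below the overall median on every array were left out. The BMP antagonist gene nog.L did not pass (0.10, limma adjusted p = 0.755), and the activin-binding protein gene fst.L fell by 1.2 (limma adjusted p = 0.00992), a call lost without either MO1/2 array and without the block.

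Inputs upstream of the organizer genes rose in part. In the list of Nodal and beta-catenin inputs, 16 of 35 genes rose with activin/RA and 2 fell (median 0.06). Over all probe sets 9.60% rose and 10.9% fell. mixer.L (5.04), mix1.S (4.87), eomes.S (4.47) and mix1.L (4.40), encoding homeodomain and T-box factors of mesendoderm, had the largest rises (limma adjusted p of 9.5e-05 or less). None of the activin receptor (acvr) or beta-catenin (ctnnb1) genes passed, and of the Smads smad4.L rose (1.73) and smad2.S fell (-0.48). The rise of smad4.L was smallest in the control pair, at log2 signals of 7.79 in activin/RA caps and 6.85 in untreated caps. It read 7.62 against 5.31 with MO1/2 and 7.67 against 5.73 with MO3. The fall count was 6 without either control array and 1 without any one of the other arrays.

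**Figure D4:**
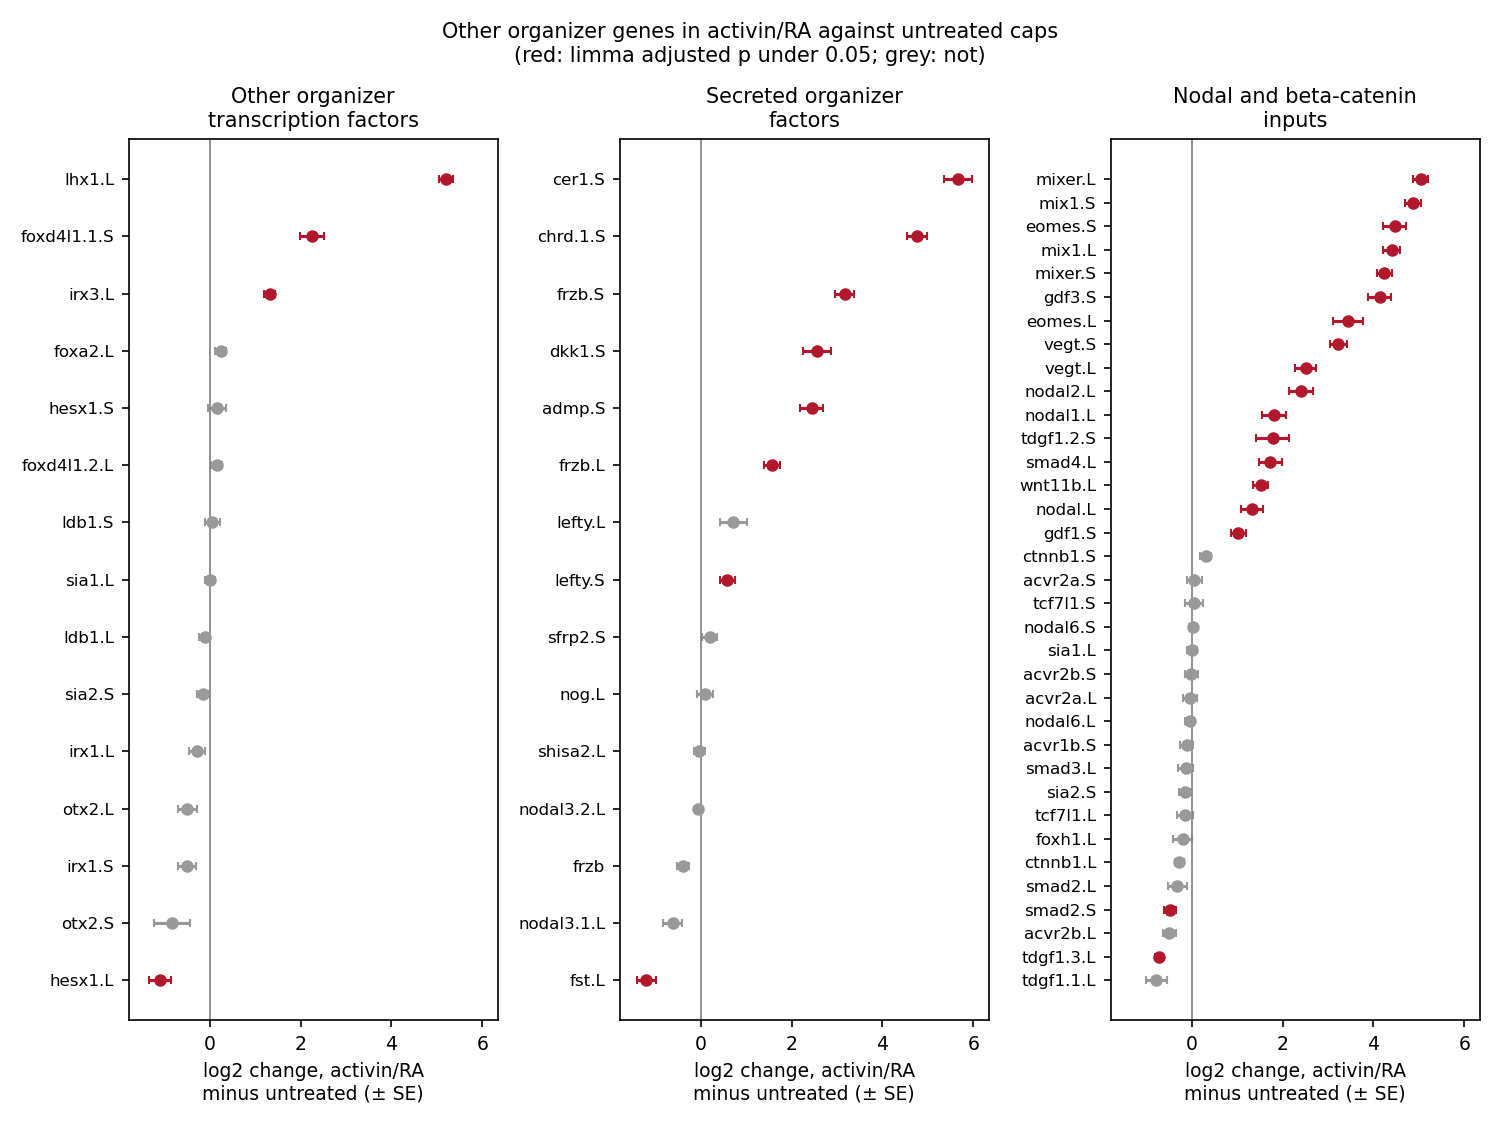
Log2 change with activin/RA (mean of 3 pairs ± SE) for every measured gene of 3 organizer lists, in red where limma's adjusted p was under 0.05 and grey where not. lhx1.L, cer1.S, chrd.1.S and the mix genes lie at the top, and the sia, ldb1 and most receptor genes lie near 0.

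With the ERK3 morpholinos in untreated caps, 5 of the 35 inputs rose and 2 fell, where 3.14% of all probe sets rose and 3.56% fell. The gene tdgf1.1.L (1.85), for a co-receptor of Nodal, the T-box genes vegt.S (1.26) and vegt.L (1.13), the Smad partner gene foxh1.L (1.23) and smad2.L (0.98) rose, with smad4.L (-1.33) and the Wnt effector gene tcf7l1.L (-1.13) lower (limma adjusted p between 0.0155 and 0.0488). None of the 7 calls held without the untreated MO1/2 array, and without the untreated MO3 array 2 of the inputs rose. In activin/RA caps 0 of 35 passed, with 6 at an unadjusted limma p under 0.05. Of the other organizer transcription factors hesx1.L fell in untreated caps (-1.33, limma adjusted p = 0.0366), where 0 genes of that list fell without the MO1/2 array and 3 without the MO3 array. In untreated caps 6.70% of all probe sets passed in either direction. The 1 of 15 other organizer transcription factor genes is near that background and is no result about the list. Of the secreted factors 0 passed in either culture, with 3 at an unadjusted limma p under 0.05 in each.

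Most of the ventral and trunk genes that gsc is known to repress in Xenopus rose in the mean of the 3 pairs. Of 12 genes 9 rose with activin/RA and 0 fell (median 1.88), and 5 rose without the morpholino block. Over all probe sets 9.60% rose and 10.9% fell. In the control pair alone several ventx genes differed little. There ventx3.2.S read 7.66 in activin/RA caps against 7.56 in untreated caps, and ventx1.1.S 7.24 against 6.61. ventx2.1.S read 10.70 against 10.27 and ventx2.1.L 10.75 against 10.16, while wnt8a.L read 8.50 against 2.17 and tbxt.S 7.17 against 2.70. The ligand gene wnt8a.L rose by 5.41, the brachyury genes tbxt.S by 4.07 and tbxt.2.S by 2.16, and the BMP target gene ventx1.2.S by 2.15 (limma adjusted p of 0.00193 or less). In untreated caps 3.56% of all probe sets fell with the ERK3 morpholinos and 3.14% rose. Of the 12 genes the morpholinos lowered 6 and raised 0, with a median of -0.88. These were bmp4.S (-1.05), ventx1.1.S (-2.93), ventx1.2.S (-1.84), ventx2.1.L (-1.66), ventx2.1.S (-1.41) and ventx3.2.S (-2.87), with limma adjusted p between 0.0155 and 0.0498, and 4 genes fell without the untreated MO1/2 array. In activin/RA caps 0 of 12 passed, with 3 at an unadjusted limma p under 0.05 and a median of -0.28.

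Notochord and floor plate genes, the later territory of foxa4, rose in part. Of 11 genes 5 rose and 0 fell (median 0.73), led by chrd.1.S and tbxt.S, which also stand in the lists above, with tbxt.2.S and tbxt.L (2.07). Over all probe sets 9.60% rose and 10.9% fell. The Sonic hedgehog gene shh.L rose by 0.76 (limma adjusted p = 0.0475) with log2 signals of 2.26 to 3.43 in activin/RA caps, against 1.94 to 2.22 in untreated caps. The notochord collagen gene col2a1.L read 1.55 to 1.68, against 1.58 to 1.92 (log2 change -0.13, limma adjusted p = 0.435). The count was 3 when probe sets below the overall median on every array were left out.

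Endoderm transcription factors, the setting in which hhex is best known at this age, rose widely. Of 20 genes 15 rose and 1, gata5.S, fell (-1.63, a call lost without the block; median 1.81), led by the mixer and mix1 genes, which the list of inputs also holds. Over all probe sets 9.60% rose and 10.9% fell. The count of 15 was 11 to 16 over the alternatives, the lowest without the activin/RA MO1/2 array. gata4.L rose by 2.40, but its second probe set changed by 0.08. In the control pair gata4.L read 7.41 in activin/RA caps against 6.49 in untreated caps, and gata4.S 7.13 against 4.76. In untreated caps with ERK3 morpholinos 2 rose, sox17b.1.S (1.35) and sox17b.1.L (1.3), and 4 fell, gata4.L (-2.90), gata6.S (-1.52), gata5.S (-1.50) and gata4.S (-1.15), with limma adjusted p between 0.0161 and 0.0338. Without the untreated MO1/2 array 1 rose and 1 fell, and without the untreated MO3 array 1 rose and 2 fell. Over all probe sets 3.14% rose and 3.56% fell with the ERK3 morpholinos in untreated caps. Second probe sets of gata4.L and gata6.S stood at -0.05 and 0.19 in that comparison.

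No measured marker of blood and endothelium, where hhex is also expressed, passed in the higher direction with activin/RA. The 2 probe sets of runx1.L changed by 0.73 and 0.75. Of 8 measured genes 0 rose and 1 fell with activin/RA (tek.S, -3.87, limma adjusted p = 8.12e-05), and etv2.L read 3.29 to 3.48 in activin/RA caps and 3.23 to 3.40 in untreated caps. Their summed linear signal was 66 to 77 in activin/RA caps, against 167 to 190 in untreated caps, where tek.S alone held 104 to 139. Among 8 muscle markers 0 rose and 1 fell (myod1.L, -1.34), and the muscle actin gene actc1.L read 2.25 to 2.36, against 1.86 to 2.48. Of 14 neural markers 0 rose and 1 fell (sox2.L, -0.66), with sums of 3730 to 4440, against 4343 to 5345. The counts of the blood, muscle and neural lists lie near the shares over all probe sets and are no result about the lists. The falls of myod1.L and sox2.L were lost without the morpholino block, and without either control array 1 of the blood and endothelium genes rose. Of the 15 epidermal markers 3 rose, all of them keratin genes, namely krt12.4.L (4.47), krt12.4.S (3.70) and krt12.5.S (3.61), and 0 fell. Their sums were 6011 to 10964 in activin/RA caps, against 4570 to 12146 in untreated caps. Leaving out either control array takes the control pair out of the blocked comparison, so that only caps with ERK3 morpholinos are compared. There 9 of the 15 rose and 1 fell. In the control pair dlx3.S read 8.06 in activin/RA caps against 8.34 in untreated caps, and tfap2a.S 9.31 against 9.22. Without the morpholino block 1 rose, and with quantile normalization 1 fell. The part of other cell types in the rise of foxa4, gsc and hhex was not tested.

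Of the genes with profiles nearest to the members over the 6 arrays, several are known from mesendoderm, among them mix1, mixer, eomes and vegt. Nearness was the Euclidean distance between log2 profiles centred on their own means, which mainly follows the size of the activin/RA difference. Only probe sets with a single informative gene symbol were searched, and both subgenome copies of the member itself were left out. For foxa4.L the nearest were mix1.S (distance 1.08), mixer.L (1.24) and eomes.S (1.27). For foxa4.S they were asmtl.L (0.90), lhx1.L (1.45) and cer1.S (1.46).

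gsc.L lay nearest to the FGF ligand gene fgf20.L (distance 0.74), rgs4.S (0.88), a regulator of G protein signalling, and vegt.S (0.89). Among these, fgf20.L read 5.87 to 7.21 on the log2 scale in activin/RA caps, against 3.21 to 4.72 in untreated caps. The S2 probe set of hhex.L lay nearest to the dorsal BMP ligand gene admp.S (0.59), vegt.L (0.71) and the forkhead gene foxc1.L (0.71). Pearson correlations of these 12 pairs were 0.976 to 0.998 over 6 arrays that share the culture contrast, and they carry no test.

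Neighbouring genes were read for each member, a look added after the values were seen. In the RefSeq gene order of Xenopus laevis v10.1, foxa4.L lies on chromosome 4L, foxa4.S on 4S, gsc.L on 8L and hhex.L on 7L. Of the 24 nearest measured genes, 3 on each side, 4 rose and 3 fell with activin/RA, where 9.60% of all probe sets rose and 10.9% fell, and the median change was -0.20. These counts lie near those over all probe sets. Apart from 1 gene their changes lay between -0.74 and 0.66.

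That gene was cyp26a1.L, which encodes a cytochrome P450 that degrades retinoic acid and is the third coding gene from hhex.L. Its log2 signal was 10.41 with MO1/2, 9.91 with MO3 and 10.73 with Control MO in activin/RA caps, against 6.99, 7.47 and 7.74 in untreated caps. The change was 2.95 ± 0.18 (SE, 3 pairs; limma adjusted p = 0.000122). kif11.L, the measured gene next to hhex.L on its other side, stood at -0.15 (limma adjusted p = 0.501). Beside foxa4.L, the NF-kappaB subunit gene rela.L rose by 0.43 (limma adjusted p = 0.0477), and the serpin genes beside gsc.L did not pass.

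**Figure D5:**
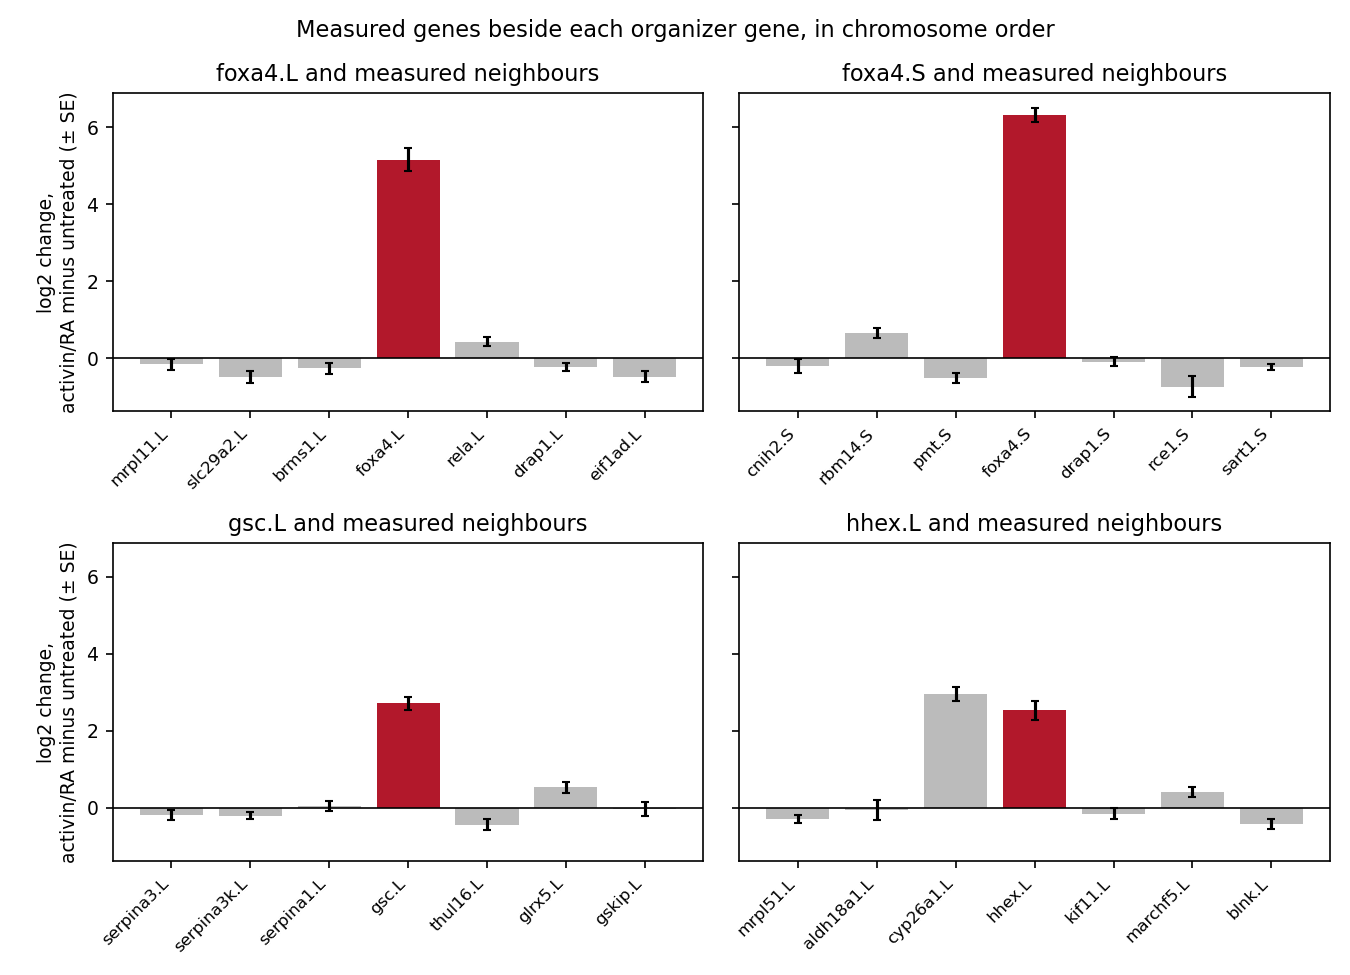
Log2 change with activin/RA (mean of 3 pairs, error bars SE) for each member (red; the S2 probe set for hhex.L) and the 3 nearest measured genes on each side (grey), in chromosome order and not to distance. cyp26a1.L (2.95) is the only grey bar that exceeds 1.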

How the data were processed

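The authors scanned GeneChip Xenopus laevis Genome 2.0 arrays and normalized the CEL files with the robust multi-array average (RMA) in Expression Console, per the labels' design text. The deposited table holds linear RMA intensity (2.13 to 18347), where log2 had been assumed, so log2 was taken with no constant added. RMA signals carry no detection call. From 32635 rows, 96 array controls were dropped. A single symbol was annotated for 15495 probe sets (15384 matched to RefSeq by gene identifier), more than 1 for 279, and 16765 had none.

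Tests used limma 3.58.1 in R 4.3.3 with an intensity trend over all 32539 probe sets, Benjamini-Hochberg adjusted and called at 0.05. Fit 1 held culture with the morpholino as a block (also MO3 against MO1/2), and fit 2 held culture, knockdown and their interaction. Each left 2 residual degrees of freedom, to which limma added information on the variance from all probe sets. SEs, intervals and p-values use this moderated variance. The code was tested on simulated data. Members and lists were chosen with earlier results of these data known. All members are named, as are the 3 nearest profiles per gene, up to 4 genes of each list with the largest activin/RA change, and list genes passing in an ERK3 comparison. Other genes named (sia1.L, sia2.S, otx2.L, foxa2.L, nog.L, fst.L, shh.L, col2a1.L, etv2.L, actc1.L, smad2.S, tp63.L, tp63.S, the neighbours cyp26a1.L, kif11.L and rela.L) were chosen after their values were seen. So was runx1.L. Alternatives were no trend, a level filter, quantile normalization, 16 added before logs, no block and each array left out.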

Additional observations from a re-analysis of the deposited data

How the results depend on the processing

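Every member kept its direction for activin/RA against untreated caps under all alternatives run, and the calls held except for the S1 probe set of hhex.L, which ranged from 0.64 to 0.72 with single arrays left out. Counts of passing probe sets moved more. For activin/RA the count was 6668, with 2860 without the morpholino block and 1859 to 10636 with single arrays left out, the low end (1859 to 2576) without an ERK3 array and the high end (10628 and 10636) without a control array. For ERK3 in activin/RA caps it was 45, with 16 without the intensity trend, 0 with the level filter, 203 with 16 added before logs and 0 to 45 with arrays left out (27 without activin/RA MO1/2, 0 without activin/RA MO3, 4 without untreated MO1/2 or MO3). For ERK3 in untreated caps it was 2180, with 322 to 2482, the lowest without untreated MO1/2. For the difference between cultures it was 0, with 6 when 16 was added and 0 to 2 with arrays left out. For MO3 against MO1/2 it was 0, with 0 to 778, the calls arising without the activin/RA control (778) or the untreated control (742). With 16 added, the culture difference of the ERK3 effect on foxa4.L was 0.24 and its MO3 against MO1/2 value was -0.21, both opposite in sign to the reported values. With arrays left out, signs also turned for the S2 probe set of hhex.L (ERK3 in activin/RA caps, -0.68 to 0.23; MO3 against MO1/2, -0.92 to 0.27), for foxa4.L (MO3 against MO1/2, -0.73 to 0.77) and for foxa4.S (culture difference, -0.16 to 0.48; MO3 against MO1/2, -0.59 to 0.02). Without 1 ERK3 array, the ERK3 comparison of its culture sets the other reagent against the control array alone. The -0.68 and 0.23 of hhex.L are therefore the MO3 and MO1/2 differences given above. The -0.16 and 0.48 of foxa4.S arise likewise, from MO3 alone and MO1/2 alone in activin/RA caps. For MO3 against MO1/2, the reagents differed in opposite directions in the 2 cultures. The values in activin/RA and untreated caps were -0.79 and 0.83 for foxa4.L, -0.64 and 0.06 for foxa4.S, and -0.91 and 0.26 for the S2 probe set. Leaving out an ERK3 array moves that estimate toward the culture that keeps both reagents. The cause of the sign changes with 16 added was not tested. Fits without 1 array have 1 residual degree of freedom where the block is kept. The activin/RA estimate then rests on the other pairs, because the array left without a partner adds nothing to it. An ERK3 comparison cannot be fitted without the control array of its culture. No paired analysis by replicate number was possible because each group has 1 array. The level filter removes the S1 probe set of hhex.L. The list counts under alternatives were chosen after seeing the data.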
